A study of Mus musculus with 60 samples.

Results

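The acyl-CoA thioesterases described here are the 7 mouse genes Acot1, Acot2, Acot3, Acot4, Acot8, Acot12 and Acot13, of 38204 genes in the deposited table, followed through livers taken after exposure to heavy ions. They were chosen by name, from livers in which differences between irradiated and control mice at 9 months were already known, so the 9-month values against controls are given as a description with no test. The value of a gene is the sum of the RPKM (read counts scaled for transcript length and for the mapped reads of the library) of its annotated transcripts in a library. The mice were C3H/HeNCrl males, a strain known for liver tumors, irradiated over the whole body at 8 to 10 weeks of age with 0.2 Gy of 600 MeV/n 56Fe, 1 GeV/n 16O or 350 MeV/n 28Si. Controls were non-irradiated or sham irradiated. RNA was made from left liver lobes at 1, 2, 4, 9 and 12 months (30, 60, 120, 270 and 360 days), with 3 mice in each of 20 groups, 60 libraries in all. The controls of a time point are shared by the 3 ions, so the comparisons with them are not independent of each other. The RNA is of whole tissue, in which fewer cells of a type and less RNA per cell cannot be told apart.

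Acyl-CoA thioesterases cut activated fatty acids (acyl-CoAs) into free fatty acid and coenzyme A, and so set how much of each is held in a compartment of the hepatocyte. Acot1 works in the cytosol, Acot2 in mitochondria and Acot3, Acot4 and Acot8 in peroxisomes, while Acot12 acts on acetyl-CoA in the cytosol and Acot13 (also called Them2) binds the phosphatidylcholine transfer protein Pctp. Acot1 to Acot4 are known targets of PPARα, the nuclear receptor that fatty acids activate in fasting liver. Acot1 to Acot6 arose by duplication and lie side by side on the plus strand of chromosome 12 (GRCm38) in the order Acot2, Acot1, Acot4, Acot3, Acot5 and Acot6, within 123489 bases from 83987861 to 84111349. Acot1 (ENSMUSG00000072949) spans 84009490 to 84018371, Acot2 (ENSMUSG00000021226) 83987861 to 83993873, Acot3 (ENSMUSG00000021228) 84052144 to 84060402 and Acot4 (ENSMUSG00000052392) 84038379 to 84048601. Acot8 lies on chromosome 2 (164792765 to 164804882, minus strand), Acot12 on chromosome 13 (91741512 to 91786148, plus strand) and Acot13 also on chromosome 13 (24817948 to 24831540, minus strand).

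The duplicated genes are so alike that short reads can fail to tell them apart, and the coding sequences of Acot1 and Acot2 are equal at 95.3% of 1236 bases aligned without gaps. The following 36-base stretch, as long as a read after trimming, is the same in Acot1 to Acot4 and lies in exon 1 of Acot1 (chr12:84009622-84009657).

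Acot1 to Acot4: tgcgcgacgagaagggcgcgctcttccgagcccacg

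A later stretch shows where a read can be told apart, with capitals for bases unlike Acot1. It lies in exon 3 of Acot1 (chr12:84016970-84017005), exon 3 of Acot2 (chr12:83992692-83992727), exon 4 of Acot3 (chr12:84058611-84058646) and exon 3 of Acot4 (chr12:84043381-84043416), all on the plus strand of GRCm38.

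Acot1: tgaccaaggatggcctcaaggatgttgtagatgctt
Acot2: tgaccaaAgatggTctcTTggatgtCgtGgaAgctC
Acot3: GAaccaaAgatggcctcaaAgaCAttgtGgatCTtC
Acot4: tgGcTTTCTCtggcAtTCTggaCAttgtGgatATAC

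Acot2, Acot3 and Acot4 differ from Acot1 there at 8, 10 and 18 bases. Of all 36-base windows of the main transcript, 38.4% in Acot1, 34.2% in Acot2, 42.2% in Acot3 and 7.96% in Acot4 were found exactly in another gene. For Acot1 and Acot2 the gene most often shared was the other of the pair (27.2% and 28.1% of windows). For Acot3 it was the read-through gene Gm49366 (21.7% of windows), which was listed at 0 RPKM in all 60 libraries. None of the windows of Acot8, Acot12 or Acot13 was found in another gene. Values of Acot1, Acot2 and Acot3 are therefore uncertain where the authors' counting split shared reads, and the sum over Acot1 to Acot6 is given beside the differences at 1 and 9 months and between control times.

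Upstream windows of 250 bases were taken from RefSeq (GRCm38.p6) for 6 of the 7 members, since PPARα binds repeats of the hexamer AGGTCA and clock factors bind the E-box CACGTG. On either strand, AGGTCA was in 13.8% of 27025 RefSeq promoters, and among the members in Acot4 and Acot12. The direct repeat AGGTCANAGGTCA was in 0.037% of promoters and in none of the 6 windows. CACGTG was in 6.05% of promoters and, among the members, in Acot4. The Acot4 window (chr12:84038129-84038378, plus strand) holds both motifs, shown in capitals, 66 and 13 bases before the transcript start; such a match is a description of letters and no binding was measured.

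Acot4: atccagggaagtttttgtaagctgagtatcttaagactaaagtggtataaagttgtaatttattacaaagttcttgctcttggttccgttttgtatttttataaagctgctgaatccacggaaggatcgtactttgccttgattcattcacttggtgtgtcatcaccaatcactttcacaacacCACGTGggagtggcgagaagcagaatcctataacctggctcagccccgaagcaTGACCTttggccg

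Libraries held 11412665 to 40568208 mapped read pairs (median 18891345), recovered from the steps of low RPKM values, and this depth sets the precision of the low genes. All 10 hepatocyte markers reached 0.5 RPKM in at least 50% of libraries, with a summed level of 17928.5 to 51736.7 RPKM, and so did 8 of 8 Kupffer cell, 5 of 5 erythroid, 6 of 6 sinusoidal endothelium and 5 of 6 stellate cell markers, at much lower sums of 27.9 to 523.7, 28.6 to 547.9, 26.1 to 85.9 and 32.8 to 94.8 RPKM. None of 6 lymphocyte markers did (summed 0.21 to 2.53 RPKM). The share of mapped reads in annotated transcripts had medians of 52.9%, 56.9%, 81.8%, 83.9% and 78.1% at 1, 2, 4, 9 and 12 months. This share moved with time, so values are compared mainly within a time point. The part of this share in differences between times was not tested. Replicate 2 of 16O at 12 months stood apart from the other 11 of its time, for example in the clock output gene Dbp (3.00 RPKM, against 39.6 to 75.0 RPKM in the others).

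Per length, Acot12 and Acot13 were the most abundant members by median and Acot3 the least, but Acot3 had the widest range as a fold of its lowest level. Over 60 libraries the lowest, median and highest level was 12.3, 30.7 and 45.7 RPKM for Acot12, 12.3, 25.3 and 45.1 RPKM for Acot13, and 4.20, 8.17 and 13.2 RPKM for Acot8. The PPARα targets were lower, at 0.258, 2.58 and 11.3 RPKM for Acot1, 0.518, 1.51 and 5.96 RPKM for Acot2, 0.183, 0.999 and 3.80 RPKM for Acot4, and 0.0623, 0.499 and 14.9 RPKM for Acot3. Neighbours in this order crossed in some libraries: Acot12 was above Acot13 in 47 of 60, Acot1 above Acot2 in 52, Acot2 above Acot4 in 49 and Acot4 above Acot3 in 47. Acot13 was above Acot8 in all 60 libraries and Acot8 above Acot1 in 59. The estimated reads behind Acot3 were few (2 to 605 a library, median 19), against 685 to 3897 for Acot12.

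**Figure D1:**
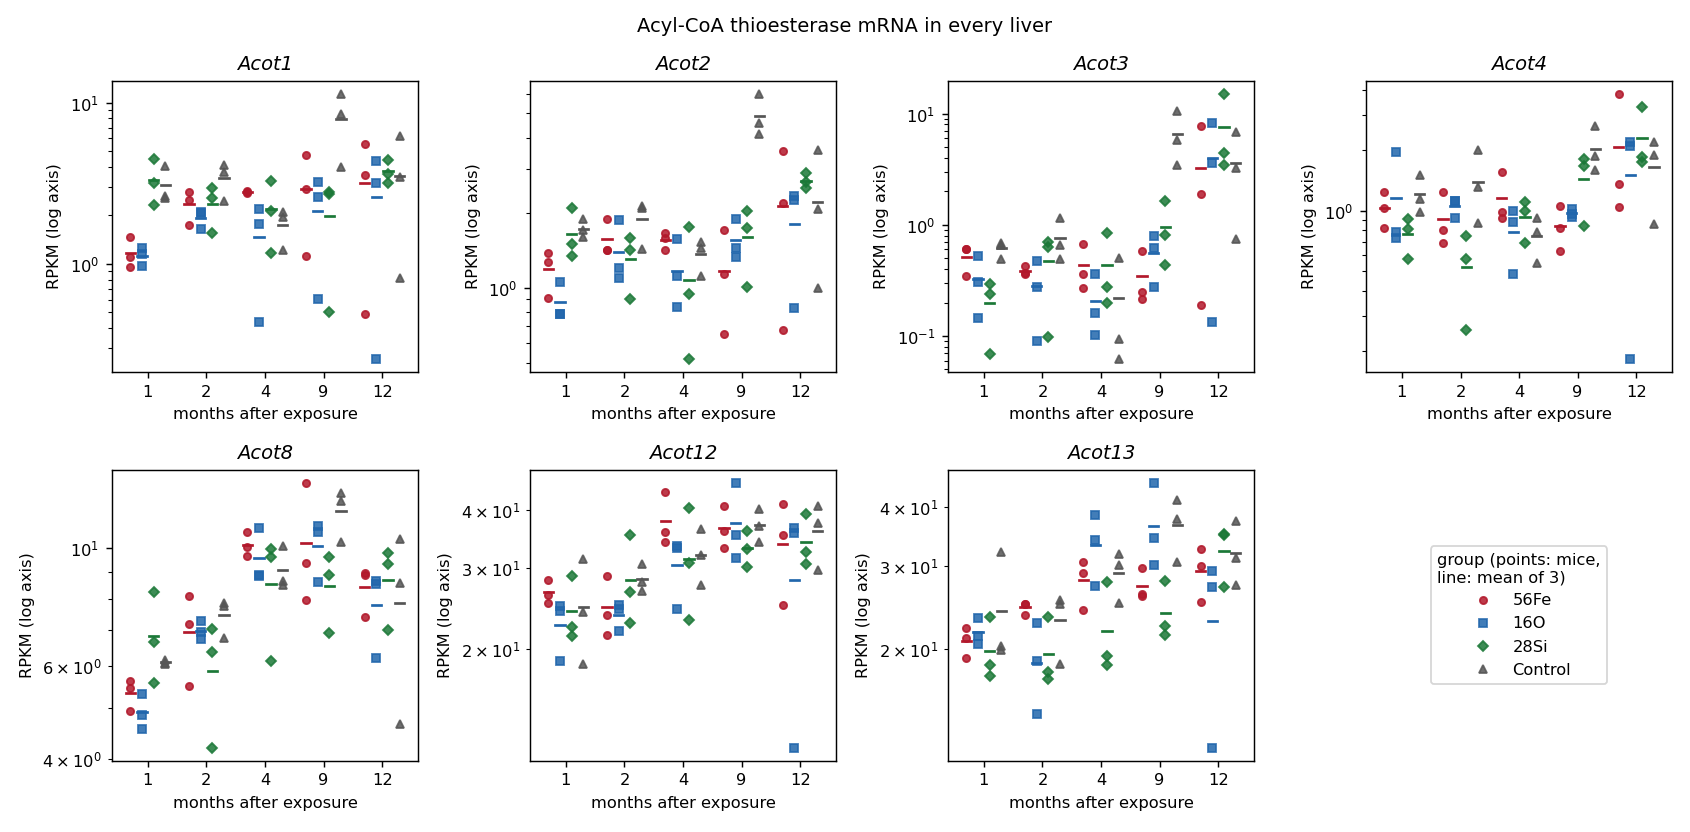
Level of each acyl-CoA thioesterase (RPKM, log axis) in every library against months after exposure, with 3 mice and their mean line for 56Fe, 16O, 28Si and control. In the Acot2 and Acot3 panels the 3 control livers at 9 months lie above all 9 irradiated livers of that time, and in the Acot3 panel the livers at 12 months spread from 0.133 to 14.9 RPKM.

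One annotated transcript carried most of each gene. Acot1-201 held 80.6% of the mean Acot1 level, Acot2-201 100%, Acot3-202 72.1%, Acot4-201 68.0%, Acot8-202 63.2%, Acot12-201 85.5% and Acot13-201 99.9%. The other transcripts that reached 1 RPKM on average in a group were Acot3-201 (20.1%), Acot8-205 (17.5%), Acot8-203 (10.3%) and Acot12-203 (14.1%). The last 3 of these are annotated as retained introns. Acot12-203 averaged 9.82 ± 0.458 RPKM in 56Fe livers and 8.29 ± 3.68 RPKM in control livers at 1 month (SD, n = 3 each). At 9 months it averaged 2.71 ± 1.27 RPKM in 56Fe livers and 0.606 ± 0.588 RPKM in control livers (SD, n = 3 each).

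At 1 month Acot1, the cytosolic enzyme, was lower after 56Fe and 16O than in controls, and not after 28Si. Acot1 was at 0.954, 1.10 and 1.48 RPKM in 56Fe livers, 1.25, 1.16 and 0.964 RPKM in 16O livers and 4.47, 2.33 and 3.16 RPKM in 28Si livers, against 2.66, 2.56 and 4.02 RPKM in control livers. Every 56Fe and 16O liver was below every control liver, as in 7.22% (56Fe) and 8.61% (16O) of all genes, and the 28Si and control livers overlapped. Acot1 fell by 1.28 on the log2(RPKM + 0.1) scale after 56Fe (SE 0.207, limma adjusted p = 0.0167 over all genes) and by 1.32 after 16O (SE 0.181, adjusted p = 0.00913). For 28Si minus control the difference was 0.03 (95% interval -0.37 to 0.44, adjusted p = 0.949). Of 7 members tested, 1 was called lower after 56Fe and 2 after 16O (adjusted p of at most 0.05), against 1.18% and 1.6% of all genes called in either direction. No member of 6 tested was called after 28Si by limma or limma-voom, where 0.244% of all genes were called and 1 member had an unadjusted p under 0.05.

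The Acot1 calls depended on the fit. With all 60 libraries in 1 fit the limma adjusted p was 0.512 for 56Fe and 0.460 for 16O. With the most abundant transcript it was 0.392 and 0.273, in a fit and adjustment over all transcripts in place of genes. Without 56Fe replicate 2 the 56Fe call had an adjusted p of 0.0796. Summed over Acot1 to Acot6, the difference from controls was -0.66 for 56Fe (SE 0.152, adjusted p = 0.0778) and -0.83 for 16O (SE 0.180, adjusted p = 0.0525), neither past the threshold.

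Acot2, the mitochondrial paralog, was at 0.905, 1.27 and 1.38 RPKM in 56Fe livers, 1.05, 0.784 and 0.784 RPKM in 16O livers and 2.09, 1.34 and 1.49 RPKM in 28Si livers at 1 month, against 1.59, 1.70 and 1.88 RPKM in control livers. The 56Fe and 16O livers were all below the control livers, a separation shared with the 7.22% and 8.61% of all genes given for Acot1. Acot2 fell by 0.88 after 16O (SE 0.186, adjusted p = 0.0481), a call lost in all 6 fits that left out 1 library (adjusted p 0.068 to 0.164). After 56Fe the difference was -0.50 (SE 0.213, adjusted p = 0.372). Part of the reads of Acot1 and Acot2 cannot be told apart, so their values are not separate evidence of 1 direction.

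The peroxisomal members had no call against controls at 1 month. Acot3 was at 0.346, 0.606 and 0.604 RPKM in 56Fe livers, 0.525, 0.306 and 0.146 RPKM in 16O livers and 0.240, 0.069 and 0.291 RPKM in 28Si livers, against 0.495, 0.693 and 0.663 RPKM in control livers, from 5 to 36 reads a library. The 28Si livers were all below the controls, as in 773 of 11045 genes tested, but Acot3 did not pass the filter on low values there. Acot4 differed from controls by -0.19 after 56Fe, -0.14 after 16O and -0.66 after 28Si (adjusted p 0.812, 0.919 and 0.380). Acot8 was at 5.62, 5.44 and 4.93 RPKM in 56Fe livers, 5.30, 4.84 and 4.56 RPKM in 16O livers and 8.25, 5.56 and 6.63 RPKM in 28Si livers, against 6.06, 6.04 and 6.15 RPKM in control livers. The 56Fe and 16O livers lay below the narrow control range (again against 7.22% and 8.61% of all genes), with differences of -0.16 and -0.27 (adjusted p 0.659 and 0.441). Acot12 and Acot13 differed from controls by 0.16 and -0.15 after 56Fe, -0.07 and -0.08 after 16O, and -0.06 and -0.32 after 28Si, none called.

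**Figure D2:**
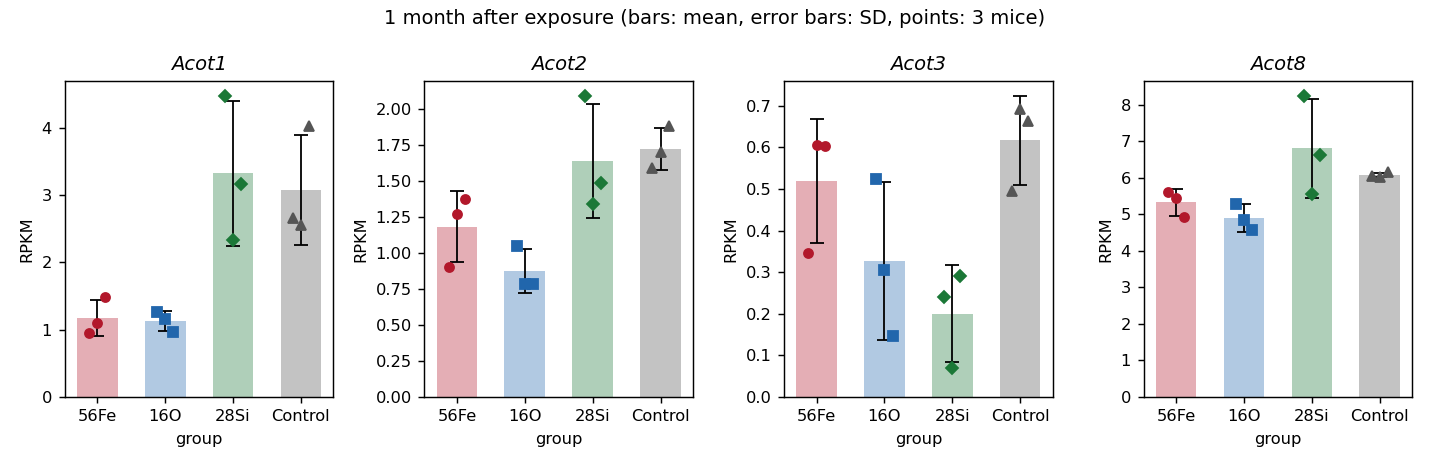
Level of Acot1, Acot2, Acot3 and Acot8 (RPKM) at 1 month in 56Fe, 16O, 28Si and control livers, with bars for the mean, error bars for the SD and points for the 3 mice. Acot1 averages 1.18 RPKM in 56Fe, 1.13 in 16O, 3.32 in 28Si and 3.08 in control livers.

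Set against each other rather than against controls, the ions differed at 1 month in Acot1. The control livers of that time stayed in this fit, in its scaling, filter and spread. On the log2 scale Acot1 was lower after 56Fe than after 28Si (-1.34, SE 0.207, adjusted p = 0.00163) and lower after 16O than after 28Si (-1.37, SE 0.207, adjusted p = 0.000911). Both calls held in 8 other settings of the fit and in all 9 fits that left out 1 irradiated library. The fit with all 60 libraries and the most abundant transcript, which lost the Acot1 calls against controls, were not run between ions. Summed over Acot1 to Acot6, a value added after seeing the data, the difference was -0.46 for 56Fe minus 28Si (SE 0.181, adjusted p = 0.127), not past the threshold, and -0.63 for 16O minus 28Si (SE 0.181, adjusted p = 0.0345). Between 56Fe and 16O the difference was 0.03 (95% interval -0.41 to 0.47, adjusted p = 0.986). Acot2 was lower after 16O than after 28Si (-0.76, SE 0.197, adjusted p = 0.0223), with adjusted p of 0.0735, 0.0592 and 0.0959 without 16O replicate 2, 16O replicate 3 and 28Si replicate 1. Acot8 was lower after 16O than after 28Si (-0.37, SE 0.118, adjusted p = 0.0489), a call lost in each of 9 fits that left out 1 library (adjusted p 0.0519 to 0.168). Of all genes, 9.37% were called between 56Fe and 28Si, 13.8% between 16O and 28Si and 0.199% between 56Fe and 16O. Of 7 members, 1, 3 and 0 were called in these comparisons, the last with 0 at an unadjusted p under 0.05 and 0 by limma-voom.

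Clock genes differed between the groups at 1 month. The clock activator Arntl was at 3.80, 2.31 and 2.88 RPKM in 28Si livers. It was at 0.420 to 0.498 RPKM in 56Fe livers, 0.177 to 0.284 RPKM in 16O livers and 0.635 to 0.760 RPKM in control livers. Dbp was at 15.2, 13.7 and 16.9 RPKM in 28Si livers. It was at 63.5 to 77.1 RPKM in 56Fe livers, 65.3 to 67.5 RPKM in 16O livers and 42.1 to 49.2 RPKM in control livers. Of 17 clock genes tested between 28Si and control livers, 1 rose (Arntl, 1.87) and 5 fell, among them Ciart (-2.38), Per1 (-1.86), Per3 (-1.77) and Dbp (-1.66), with a median of -0.51 over the list against -0.01 over all genes. The hour at which livers were taken is not given in the sources used here. The summed level of 5 brown adipocyte markers was also higher, at 101.9 to 145.1 RPKM in 28Si livers against 18.5 to 62.6 RPKM in the 9 others, although the defining marker Ucp1 did not exceed 0.0536 RPKM in any library and Elovl3, a fatty acid elongase that hepatocytes also express, was the most abundant of the list. The part of these genes in the Acot differences was not tested.

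Other genes of fatty acid handling at 1 month are given from lists of the pathway. Of 21 genes of peroxisomal oxidation, 2 fell after 56Fe, Ehhadh (-0.80), the bifunctional enzyme, and Acaa1b (-0.68), a thiolase. After 16O, 3 of the 21 fell, Crat (-1.38), a carnitine acyltransferase, Acaa1b (-1.34) and Ehhadh (-0.94). After 28Si 1 of them rose, Crot (0.81), another carnitine acyltransferase. The medians of this list were -0.06, -0.22 and 0.11 for 56Fe, 16O and 28Si, against 0.00, 0.00 and -0.01 over all genes. Of 27 genes tested in the list of PPARα and its liver targets, 3 fell and 1 rose after 56Fe, and 4 fell after 16O. The microsomal ω-hydroxylases Cyp4a10 (-1.93 after 56Fe, -2.32 after 16O) and Cyp4a14 (-3.07 after 16O) were among those that fell, with Retsat (-0.81 after 56Fe, -0.85 after 16O), a retinol saturase, and Tfrc (-1.26 after 56Fe, -0.79 after 16O), the transferrin receptor. Cyp4a14 was at 0.0386, 0.0591 and 0.0707 RPKM in 16O livers, against 0.850, 1.28 and 1.68 RPKM in control livers. The 16O levels are below the 0.1 RPKM added before the log, so the size of this change depends on it. The gene that rose after 56Fe was Ppara itself (0.58). Fasn, the fatty acid synthase, fell by 1.17 after 56Fe and by 1.05 after 16O, the single call in each among 9 other thioesterase genes tested. Pctp, the partner of Acot13, fell by 0.81 after 16O, the single call among 11 partner genes, and Acss2, an acetyl-CoA synthetase, fell by 0.57 after 16O, the single call among 14 synthetases. Of 18 genes of mitochondrial oxidation none was called after 56Fe, 16O or 28Si, with medians of -0.12, -0.21 and 0.18. The difference was below 0 for 16, 17 and 0 of them, against 49.6%, 50.1% and 51.2% of all genes. Among clock genes Dbp rose after 56Fe (0.64) and 16O (0.56), and Nr1d1 fell after 16O (-0.75). Of the 10 hepatocyte markers 1, the amino acid enzyme Tat, was lower after 56Fe (-1.26) and 16O (-1.09), and the part of this in the Acot1 difference was not tested.

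Between ions at 1 month several pathway genes were lower after 56Fe and 16O than after 28Si. Of 21 genes of peroxisomal oxidation 8 were lower after 56Fe than after 28Si, and after 16O 8 were lower and 1 higher. Crot (-1.01 for 56Fe minus 28Si, -1.38 for 16O minus 28Si) and Ehhadh (-0.90 and -1.03 in the same order) were among these. Of 18 genes of mitochondrial oxidation 6 were lower after 56Fe and 11 after 16O, among them the electron transfer flavoprotein subunit Etfa (-0.73 and -0.80). Pdk4, the kinase that shuts off pyruvate oxidation, differed by -1.79 and -2.44, and Pctp by -1.02 and -1.31. The list medians for peroxisomal oxidation were -0.23 and -0.38, against 0.00 over all genes in both.

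At 2, 4 and 12 months no member was called against controls. In 58 member tests at these times limma called 0 and 5 had an unadjusted p under 0.05, and limma-voom called 0 in 62. Of all genes, 0.0% were called at 2 months after 56Fe, 0.0% after 16O and 0.0181% after 28Si. At 4 months 0.541%, 0.0% and 0.382% were called after 56Fe, 16O and 28Si, and at 12 months 0.0%, 0.00878% and 0.0176%. Among the largest member differences at these times, Acot1 was at 2.77, 2.82 and 2.75 RPKM in 56Fe livers at 4 months, against 1.95, 2.09 and 1.22 RPKM in control livers. These groups did not overlap, with a difference of 0.69 (SE 0.188, adjusted p = 0.185), and 7.23% of all genes had every 56Fe liver above every control liver in that comparison. Acot4 was at 0.255, 0.572 and 0.747 RPKM in 28Si livers at 2 months, against 2.00, 0.866 and 1.32 RPKM in control livers, with a difference of -1.20 (SE 0.336, adjusted p = 0.477). Here too the groups did not overlap, as in 6.63% of all genes with every 28Si liver below every control liver. Acot1 differed from controls at 2 months by -0.71 after 16O (SE 0.195, adjusted p = 0.403). In the 56Fe livers of 4 months 3 of the PPARα targets rose, the hormone Fgf21 (2.47), the lipase inhibitor G0s2 (2.26) and Pdk4 (1.38), as did the clock genes Arntl (2.05) and Clock (0.76), and in the 28Si livers of 4 months Fasn rose (0.88).

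**Figure D3:**
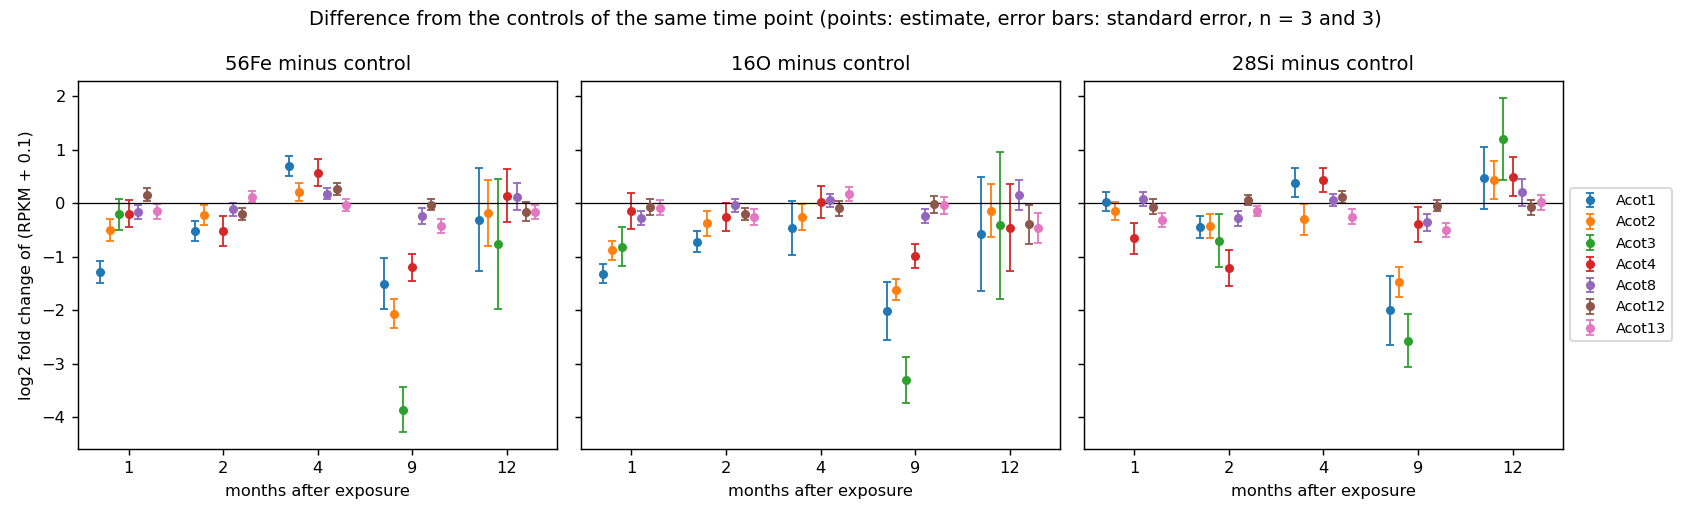
Difference from the controls of the same time point on the log2(RPKM + 0.1) scale for the 7 members, against months after exposure, for 56Fe, 16O and 28Si; error bars are standard errors. Acot2 and Acot3 are at -2.06 and -3.86 for 56Fe at 9 months, and a point is missing where Acot3 did not pass the filter on low values.

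At 9 months, the time at which the family was chosen, Acot1, Acot2 and Acot3 were lower in irradiated than in control livers and Acot12 was not. Acot3 was at 0.216, 0.247 and 0.577 RPKM in 56Fe livers, 0.794, 0.276 and 0.613 RPKM in 16O livers and 0.814, 0.433 and 1.64 RPKM in 28Si livers, against 3.48, 5.77 and 10.5 RPKM in control livers. All 9 irradiated livers were below all 3 control livers. Taken 1 ion at a time, every irradiated liver was below every control liver in 13.1% (56Fe), 10.3% (16O) and 16.0% (28Si) of all genes. The share of genes with all 9 below all 3 was not counted. The difference was -3.86 for 56Fe (SE 0.417), -3.31 for 16O (SE 0.426) and -2.57 for 28Si (SE 0.496).

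Acot2 at 9 months was at 1.13, 0.653 and 1.71 RPKM in 56Fe livers, 1.33, 1.45 and 1.88 RPKM in 16O livers and 2.03, 1.01 and 1.74 RPKM in 28Si livers, against 4.55, 4.13 and 5.96 RPKM in control livers. Here too the irradiated livers did not reach the control livers, with differences of -2.06 (SE 0.276), -1.61 (SE 0.198) and -1.48 (SE 0.280). Acot1 was at 2.93, 1.13 and 4.71 RPKM in 56Fe livers, 0.605, 3.23 and 2.59 RPKM in 16O livers and 2.78, 0.505 and 2.70 RPKM in 28Si livers, against 8.50, 3.99 and 11.3 RPKM in control livers. The highest 56Fe liver overlapped the lowest control liver, and the differences were -1.50, -2.02 and -2.00 (SE 0.478, 0.544 and 0.637). The 16O value was -1.34 without 16O replicate 1, and the 28Si value -1.25 without 28Si replicate 2.

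Acot4 at 9 months was at 0.817, 0.632 and 1.05 RPKM in 56Fe livers, 0.931, 0.964 and 1.02 RPKM in 16O livers and 1.81, 0.843 and 1.67 RPKM in 28Si livers, against 1.60, 1.87 and 2.65 RPKM in control livers. The 56Fe and 16O livers lay below the controls (-1.20 and -0.99, against the shares of all genes given for Acot3) and the 28Si livers overlapped them (-0.39). Acot8 differed by -0.24, -0.24 and -0.35 after 56Fe, 16O and 28Si, Acot13 by -0.43, -0.04 and -0.49, and Acot12 by -0.02, -0.02 and -0.04. Summed over Acot1 to Acot6 the differences were -1.98, -1.91 and -1.65. At the threshold used at the other times 3 of 7 members were below controls after 56Fe, 2 after 16O and 0 after 28Si, where 3.65%, 1.11% and 0.124% of all genes were called. The contrast chose the members, and nothing is read from these counts. In the same contrast the list of PPARα and its liver targets had medians of -0.41, -0.34 and -0.47 after 56Fe, 16O and 28Si. Over all genes they were 0.00, 0.00 and 0.01. The fatty acid transporter Cd36 was at 7.45, 3.13 and 12.3 RPKM in 56Fe livers, 5.68, 2.61 and 4.20 RPKM in 16O livers and 7.68, 15.2 and 25.1 RPKM in 28Si livers, against 43.1, 64.2 and 64.8 RPKM in control livers. Acaa1b differed by -0.95 after 56Fe and by -0.98 after 16O, and Acss3, a propionyl-CoA synthetase, by -1.68 and -1.65. Between ions, no member was called at 2, 4, 9 or 12 months by limma or limma-voom in 84 member tests, of which 12 had an unadjusted p under 0.05 (0.0% to 1.17% of all genes called).

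The control livers themselves moved between times. Acot3 was at 0.0623 to 1.15 RPKM in all 36 libraries of 1 to 4 months (median 0.364). In control livers it was at 3.48, 5.77 and 10.5 RPKM at 9 months, against 0.0623, 0.502 and 0.0945 RPKM at 4 months. The control difference 9 minus 4 months was 4.39 for Acot3, 1.99 for Acot1, 1.73 for Acot2 and 1.29 for Acot4, and 0.19 to 0.34 for the other 3 members. For 12 minus 9 months it was -1.40 for Acot1, -1.23 for Acot2, -1.14 for Acot3 and -0.62 for Acot8, and -0.33 to -0.03 for the other 3. Summed over Acot1 to Acot6 these differences were 2.18 and -1.12. Of all genes, 1.97% and 4.94% were called in these steps, and as they use the 9-month controls they are given with no p. The 56Fe effect at 9 minus 4 months was -2.26 for Acot2 and -4.72 for Acot3, where 1.25% of all genes were called. Between 2 and 4 months Acot4 fell by 1.18 in controls (SE 0.457, adjusted p = 0.0360), where 38.6% of all genes were called and the share of reads in transcripts also moved. The sum over Acot1 to Acot6 differed by -1.24 in this step (SE 0.522, adjusted p = 0.0560), not past the threshold. Without further scaling of the deposited values the Acot4 call had an adjusted p of 0.180, and by limma-voom 0.356. It was 0.160, 0.0659, 0.0699 and 0.121 without control replicates 1 and 3 of 2 months and 1 and 3 of 4 months. Between 1 and 2 months no member was called by limma or limma-voom and none had an unadjusted p under 0.05 (0.738% of all genes called).

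At 12 months the chromosome 12 members varied widely between mice of the 56Fe, 16O and control groups. Acot3 was at 0.189, 1.88 and 7.73 RPKM in 56Fe livers, 8.27, 0.133 and 3.61 RPKM in 16O livers and 3.45, 14.9 and 4.42 RPKM in 28Si livers, against 6.88, 0.749 and 3.23 RPKM in control livers. The low livers were 56Fe replicate 1, 16O replicate 2 and control replicate 2. In 28Si livers the spread was narrower, with a highest over lowest level of 1.39 for Acot1, 1.16 for Acot2 and 1.88 for Acot4, and 4.33 for Acot3. Acot1 was low in the same livers, at 0.489 RPKM in 56Fe replicate 1, 0.258 RPKM in 16O replicate 2 and 0.816 RPKM in control replicate 2, against 3.17 to 6.21 RPKM in the 9 others. The peroxisomal thiolase Acaa1b was at 65.0, 24.4 and 78.3 RPKM in these livers, against 221 to 320 RPKM in the others. In the 16O liver Acot12 and Acot13 were also at the lowest level of the 12 (12.3 RPKM each). Markers of Kupffer cells, the macrophages of the liver, were high in these 3 livers, with a summed level over 8 markers of 523.7 RPKM in 56Fe replicate 1, 314.7 RPKM in 16O replicate 2 and 297.8 RPKM in control replicate 2, against 51.3 to 137.4 RPKM in the 9 others. Of the 8 markers 7 were higher in all 3 than in any other liver of that time and none was at 0. The scavenger receptor Marco was at 112.1, 63.7 and 45.2 RPKM in them, against 0.171 to 0.838 RPKM in the others, while Clec4f, at 17.4, 24.8 and 31.8 RPKM, was within the range of the others. The part of these markers in the Acot levels was not tested.

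**Figure D4:**
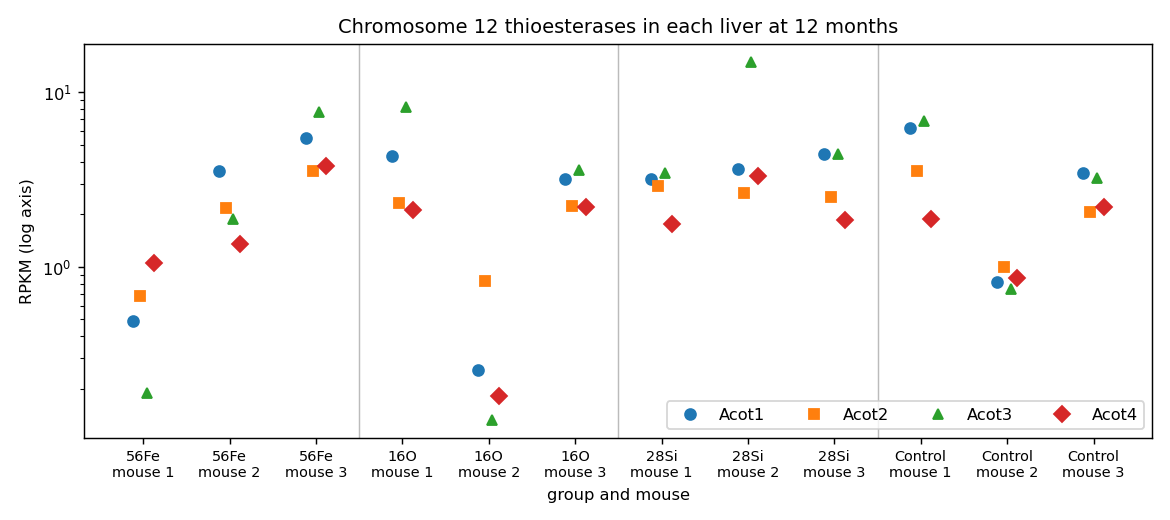
Level of Acot1, Acot2, Acot3 and Acot4 (RPKM, log axis) in each of the 12 livers at 12 months, by group and mouse. In 56Fe mouse 1, 16O mouse 2 and control mouse 2 Acot1 is at 0.489, 0.258 and 0.816 RPKM and Acot3 at 0.189, 0.133 and 0.749 RPKM.

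The spread within groups was wider for the chromosome 12 members than for the other 3. These members also had fewer estimated reads, with medians of 19 to 94 a library, against 150.5 to 1411.5 for the other 3. The genes behind the median given below were not matched for level, and the part of level in the spread was not tested. The pooled SD on the log2 scale at 12 months was 1.99 for Acot3, 1.45 for Acot1, 1.01 for Acot4 and 0.776 for Acot2, against 0.448 for Acot12, 0.328 for Acot13 and 0.316 for Acot8, where the median of 10013 genes was 0.238. At 1 month it was 0.544 for Acot3 and 0.276 for Acot1, against 0.191 for the median gene. At 12 months the differences from controls of Acot3 were -0.76, -0.40 and 1.21 after 56Fe, 16O and 28Si. The 95% intervals were -3.64 to 2.13, -3.70 to 2.89 and -0.56 to 2.97 in the same order. Changes of several fold lie within the 56Fe and 16O intervals in either direction, and within the 28Si interval upward, and were not detectable.

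Across the 60 libraries, after the mean of each time was taken away, Acot1 to Acot3 moved together, and Acot1 moved with genes of fatty acid oxidation. Acot2 was most like Acot1 (Pearson r = 0.83), then Acot3 (r = 0.82) and Pctp (r = 0.79). Acot1 was most like Acaa1b (r = 0.88), Ehhadh (r = 0.86) and the enoyl-CoA isomerase Eci1 (r = 0.86), and Acot3 most like Acot2 (r = 0.82), Acss3 (r = 0.77) and the fatty aldehyde dehydrogenase Aldh3a2 (r = 0.77). Acot4 was most like Slc47a1 (r = 0.72), Miga2 (r = 0.72) and Pkp4 (r = 0.71), and Acot8 most like Acot1 (r = 0.64), Slc22a28 (r = 0.62) and Gstm6 (r = 0.60). Acot12 was most like Npc1 (r = 0.87), Acsl1 (r = 0.85) and Prkd3 (r = 0.83), and Acot13 most like Ddt (r = 0.79), Mrpl14 (r = 0.79) and Cox6b1 (r = 0.79). These are the highest of 10012 genes and include the differences between groups, among them those on which the members were chosen. The likeness among Acot1 to Acot3 is therefore not independent of that choice. The libraries share controls and depth, and Acot1 and Acot2 share reads, so these correlations describe these libraries only.

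Of the other Acot genes, Acot7 was at 1.97 to 8.75 RPKM (median 4.96), Acot9 at 0.337 to 2.93 RPKM and Acot6 at 0.159 to 0.791 RPKM. Acot11 did not exceed 0.801 RPKM and Acot5 did not exceed 0.110 RPKM. Acot10 was listed at 0 in all 60 libraries.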

How the data were processed

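The authors sequenced rRNA-depleted RNA (paired reads of 50 bases, 14 trimmed at the 5′ end) and used CLC Genomics Workbench 12.0.3 for mapping, against GRCm38 and annotation release 97, at a length and similarity fraction of 95%. They deposited RPKM for 123811 transcripts in 60 libraries, with means of the groups, which were not used. The counting of reads shared by paralogs is not given in the sources used here. RPKM was summed over the transcripts of a gene. Depth was recovered from RPKM steps: 99.75% to 99.96% of values of up to 30 reads were whole within 0.02. Differences were tested with limma 3.58.1 in R 4.3.3 on log2(RPKM + 0.1), which understates changes of low genes, after trimmed-mean scaling (30% of M and 5% of A values). Genes needed 0.5 RPKM in 3 libraries of the fit, p-values were adjusted by Benjamini-Hochberg over all genes, and 0.05 was the highest adjusted p called. Alternatives were limma-voom on estimated reads, other scalings, pseudocounts and filters, a replicate block, fits with each library left out, the most abundant transcript and the sum over Acot1 to Acot6. With the most abundant transcript, the filter and the adjustment ran over all transcripts in place of genes. The fits were tested on simulated data. The replicates were separate mice. Named genes were all members, the other Acot genes, up to 4 called genes of each list by fold change, and the 3 genes most like each member. Dbp, Arntl, Cd36 and Acaa1b by library, and the markers Marco, Clec4f, Elovl3 and Ucp1, were added after their values were seen, and an item of the lists is not reported here. The members and lists were chosen with earlier results of these data known.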

Additional observations from a re-analysis of the deposited data

Results flagged for a closer look

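Differences between ions, or between times for 1 ion, were found for the following values on the log2(RPKM + 0.1) scale. At 1 month Acot1 differed by -1.34 between 56Fe and 28Si livers and by -1.37 between 16O and 28Si livers, and Acot2 and Acot8 differed by -0.76 and -0.37 between 16O and 28Si livers, each by limma with an adjusted p of at most 0.05. Summed over Acot1 to Acot6 the 56Fe and 28Si livers differed by -0.46 (limma adjusted p = 0.127). Clock genes differed between the 56Fe, 16O, 28Si and control livers of this time, and their part was not tested. The 56Fe effect at 9 minus 4 months was -2.26 for Acot2 and -4.72 for Acot3. These 2 values rest on the 9-month livers on which the members were chosen and carry no p.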

How the results depend on the processing

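Against controls 8 calls of a member in a comparison were made over 15 comparisons, 5 of them at 9 months, whose values chose the members and are no test. This count was 5 with 60 libraries in the fit and 0 with the most abundant transcript, a fit over all transcripts in place of genes. It was 2 with Acot1 to Acot6 summed (fewer members are then tested) and 3 with the 9-month comparisons left out. With 1 library left out it was 5 to 8. It was lowest without 56Fe replicates 1 or 2 or control replicate 2 of 9 months. Between ions 4 calls were made, against 2 with no filter, 2 with Acot1 to Acot6 summed and 2 to 5 with 1 library left out. Between control times 5 calls were made, 4 of them with the 9-month controls, against 2 on RPKM as deposited, 2 with no filter, 2 with Acot1 to Acot6 summed, 3 with limma-voom and 1 without the 9-month comparisons, and 3 to 9 with 1 library left out, with 9 without 16O replicate 2 of 12 months. For ion effects between times 2 calls were made, both on the 9-month values that chose the members and so no test, against 4 with a pseudocount of 1, 1 with no filter, 1 with limma-voom, 0 with Acot1 to Acot6 summed and 0 without the 9-month comparisons, and 0 to 4 with 1 library left out. Leaving out the 9-month comparisons, and the sum between ions and times, were chosen after seeing the data. No direction reversed among the called members that were followed across settings. Control steps and effects between times that use the 9-month values were not followed in this way. Of 357 values of the 21 9-month differences under other settings, 347 moved by less than the spread between replicates; for Acot3 after 56Fe a pseudocount of 1 gave -2.41 and limma-voom -4.43, against -3.86. The causes were not tested.

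With the replicate block, calls of a member in a comparison numbered 9 against controls and 3 between ions. They numbered 5 between control times and 2 for effects between times. The counts against controls and between times include comparisons with the 9-month values that chose the members. The share of all genes called with the block was not counted. Same-numbered mice share only a number: all 3 correlations of their deviations from the group means were over 0.1 in 1 of 15 comparisons, 16O at 12 months (0.372, 0.522 and 0.254). Low genes such as Acot3 (2 to 605 reads a library) are limited by depth.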
